A study of Mus musculus with 4 samples.

Results

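Gemcitabine given alone and the pair paricalcitol plus hydroxychloroquine were compared in single-cell RNA of mouse pancreatic ductal adenocarcinoma (PDAC), using 1 droplet library of each. The library of mice treated with gemcitabine is called G, and that of mice treated with paricalcitol and hydroxychloroquine is called PH. Per the protocol, tumour tissue of 3 animals was pooled for each library, so neither side has a replicate, no test was made, and intervals cover counting error only. A cell barcode was kept with at least 500 UMIs (unique molecular identifiers, 1 per captured RNA molecule), at least 300 genes and at most 20% mitochondrial UMIs. This gave 14022 cells in G and 16033 in PH, 30055 of the 45685 cells that passed in all 4 libraries. The other libraries, a control given PBS and a group labelled GPH that received gemcitabine within a combination, serve only as background values. Doses and times for G and PH, and the strain, sex, age and tumour model, are not given in the sources used here.

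Gemcitabine is a deoxycytidine analogue that is built into DNA and halts its synthesis. Paricalcitol activates the vitamin D receptor, which in the pancreas is best known from stellate cells and macrophages. Hydroxychloroquine accumulates in lysosomes, raises their pH and keeps autophagosomes from being degraded. PDAC is known for dense stroma and for macrophages that recruit neutrophils and monocytes by chemokines, while T cells and natural killer (NK) cells are usually sparse.

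Cells were assigned by marker RNA. The T gate needed Cd3e, the macrophage gate C1qa and the NK gate Ncr1, each with Ptprc, which encodes CD45 of white blood cells, and without Cdkn2a or the gate gene of another immune class. The tumour gate needed Vim, which encodes vimentin, and Cdkn2a without Ptprc. The T-cell markers summed to 3346 CPM (counts per 1e6 UMIs of the gate) in the T gate of G and 4194 CPM in that of PH, with none of the 10 at 0. The 10 macrophage or monocyte markers summed to 15659 and 14542 CPM in the macrophage gate, again with none at 0. The 8 NK markers summed to 4070 and 6529 CPM in the NK gate. In the tumour gate the name holds less well, because the 8 ductal markers summed to 4815 CPM in G but to 177 CPM in PH, of which Krt19 made up 165 CPM. The 8 fibroblast markers summed to 269 CPM there in G and 433 CPM in PH, led by Col3a1 at 168 and 268 CPM. "Tumour gate" below therefore means cells with Vim and Cdkn2a RNA.

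The tumour cells of the libraries also differed in Y-linked transcripts. Kdm5d, Uty, Eif2s3y and Ddx3y together reached 22.2 CPM in the tumour gate of G (95% interval 21.1 to 23.3) against 0.407 CPM in PH (0.317 to 0.515), 0.129 CPM in control and 30.8 CPM in GPH. Xist, the RNA that coats the inactive X chromosome, was at 1116 CPM in the T gate of G and 1195 CPM in that of PH, and at 9.43 and 4.98 CPM in the tumour gate. The immune cells of both libraries thus carried Xist, while Y-linked RNA in tumour cells was largely that of G. Drug and this difference between the tumour cells cannot be told apart. Median depth was 5102 UMIs per cell in G and 8616 in PH. The libraries shared 51 barcode sequences, 0.364% of the cells of G and 0.318% of those of PH.

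Sequences of the genes on which the macrophage results turn are shown first. In that gate, PH was higher in the neutrophil chemokine genes Cxcl1, Cxcl2 and Cxcl3, and G was higher in genes of MHC class II, the complex that presents peptides to CD4 T cells. The RefSeq promoters (build GRCm38.p6, from 250 bases before to 50 bases after the start site, 5′ to 3′ on the gene's strand) of the 3 chemokine genes lie on the plus strand at chr5:90890995-90891294, chr5:90903649-90903948 and chr5:90785851-90786150. Capitals mark the match to the NF-kappaB consensus.
Cxcl1: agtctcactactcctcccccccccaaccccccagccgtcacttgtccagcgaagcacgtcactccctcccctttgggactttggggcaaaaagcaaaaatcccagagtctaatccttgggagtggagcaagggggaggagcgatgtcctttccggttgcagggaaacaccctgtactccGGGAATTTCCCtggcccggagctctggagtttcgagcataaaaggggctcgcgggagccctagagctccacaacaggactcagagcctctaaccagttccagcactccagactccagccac
Cxcl2: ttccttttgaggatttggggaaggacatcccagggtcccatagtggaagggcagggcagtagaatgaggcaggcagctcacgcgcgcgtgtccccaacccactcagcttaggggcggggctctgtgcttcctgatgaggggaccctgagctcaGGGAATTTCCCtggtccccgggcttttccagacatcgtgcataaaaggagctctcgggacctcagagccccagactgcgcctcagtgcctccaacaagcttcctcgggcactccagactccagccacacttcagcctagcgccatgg
Cxcl3: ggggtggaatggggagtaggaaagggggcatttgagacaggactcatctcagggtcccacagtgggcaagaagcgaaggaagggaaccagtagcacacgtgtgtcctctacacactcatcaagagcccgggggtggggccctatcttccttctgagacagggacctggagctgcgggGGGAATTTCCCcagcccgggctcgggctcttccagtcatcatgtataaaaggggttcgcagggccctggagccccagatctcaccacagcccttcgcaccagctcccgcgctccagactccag
Each held the letters GGGAATTTCCC, beginning 71, 97 and 73 bases before the start site. The consensus, searched on both strands, was found in 8.18% of 27025 promoters, 1 per gene symbol, and in 3 of the 8 neutrophil chemokine genes with a promoter in the table. It was also found in 2 of the 9 MHC class II genes, which went the other way. Of other genes higher in PH, Il6 held 1 match, and Tnf and Il1b held none. For MHC class II, H2-Aa (minus strand, chr17:34287774-34288073) and H2-Eb1 (plus strand, chr17:34305617-34305916) are shown with the Y box, CTGATTGG, in capitals.
H2-Aa: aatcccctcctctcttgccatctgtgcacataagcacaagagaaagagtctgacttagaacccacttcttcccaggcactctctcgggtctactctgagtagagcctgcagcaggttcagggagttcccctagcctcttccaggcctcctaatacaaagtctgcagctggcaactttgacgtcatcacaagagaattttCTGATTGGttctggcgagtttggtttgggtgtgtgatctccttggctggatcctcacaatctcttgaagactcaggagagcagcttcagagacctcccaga
H2-Eb1: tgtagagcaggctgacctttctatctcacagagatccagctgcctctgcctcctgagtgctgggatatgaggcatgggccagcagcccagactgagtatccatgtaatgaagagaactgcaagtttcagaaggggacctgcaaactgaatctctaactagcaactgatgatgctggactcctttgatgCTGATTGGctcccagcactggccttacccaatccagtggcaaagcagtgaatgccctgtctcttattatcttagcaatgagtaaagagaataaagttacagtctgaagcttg
The Y box began 51 and 62 bases before the start site. On either strand it occurred in 4.31% of the 27025 promoters, and in 3 of the 9 listed MHC class II genes in the table. The promoter of H2-DMa, for example, held none. A match describes these letters and says nothing about binding in these cells.

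The libraries differed in makeup. The tumour gate held 23.5% of the cells of G (3299 cells, interval 22.8 to 24.2%) and 82.9% of those of PH (13297 cells, 82.3 to 83.5%), with 81.2% in control. The T gate held 18.2% of G (2559 cells, 17.6 to 18.9%) and 1.71% of PH (274 cells, 1.51 to 1.92%), a ratio of 10.7. For macrophages the shares were 6.65% (932 cells, 6.24 to 7.07%) and 0.879% (141 cells, 0.741 to 1.04%), a ratio of 7.56. NK cells made up 2.18% of G (306 cells) and 0.125% of PH (20 cells), a ratio of 17.5. Control held 2.52% T cells, 0.498% macrophages and 1.09% NK cells, so G was above PH and control in these 3 gates, and PH was under control in T and NK cells. GPH, which also received gemcitabine, held 0.874% T cells, 0.284% macrophages and 0.153% NK cells, with 81.1% in the tumour gate. Shares of 1 library sum to a whole, so more immune cells and fewer tumour cells cannot be told apart here. Cells in no gate, 49.4% of G (6926 cells) and 14.4% of PH (2301 cells), do not enter the gene results by gate. Among them the macrophage or monocyte markers summed to 3088 CPM in G and 1735 CPM in PH, and neutrophil markers to 2599 and 344 CPM.

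Within the immune gates alone the libraries were closer. T cells were 67.4% of the gated immune cells of G (65.9 to 68.9%) and 63.0% of those of PH (58.3 to 67.5%), intervals that overlap. Macrophages were 24.5% in G and 32.4% in PH, and NK cells 8.06% and 4.60%. For macrophages and for NK cells the intervals of G and PH did not overlap. They cover counting error within 1 library per side and say nothing about spread between animals. Cd3e RNA alone marked 4249 cells in G and 1960 in PH, but 1595 of those in PH also held Cdkn2a, and the T-cell ratio on Cd3e alone was 2.48. Typing each cell by its leading marker list gave 30.2% T cells in G and 3.59% in PH, a ratio of 8.41. C1qa alone marked 2071 cells in G and 751 in PH, of which 419 and 447 also held Cdkn2a, and gave a macrophage ratio of 3.15. Typing by marker lists lowered the macrophage ratio to 3.74 and the NK ratio to 3.50 (1077 NK cells in G and 352 in PH). So typed, the NK ratio lay under the T-cell ratio, while by the gates it lay above it. The NK list holds Klra4, which stood at 55.9 CPM in the tumour gate of G and 139 CPM in that of PH, with Ncr1 at 0.043 and 0.035 CPM. The part of Klra4 in the typed NK cells was not tested. Typing also added neutrophils at 7.01 and 0.181%, dendritic cells at 1.65 and 0.225% and B cells at 0.970 and 0.0374%. By the same typing, ductal cells made up 12.1% of G and 2.08% of PH, fibroblast-marked cells 6.77 and 29.0%, and cells with no type 13.3 and 57.0%.

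**Figure D1:**
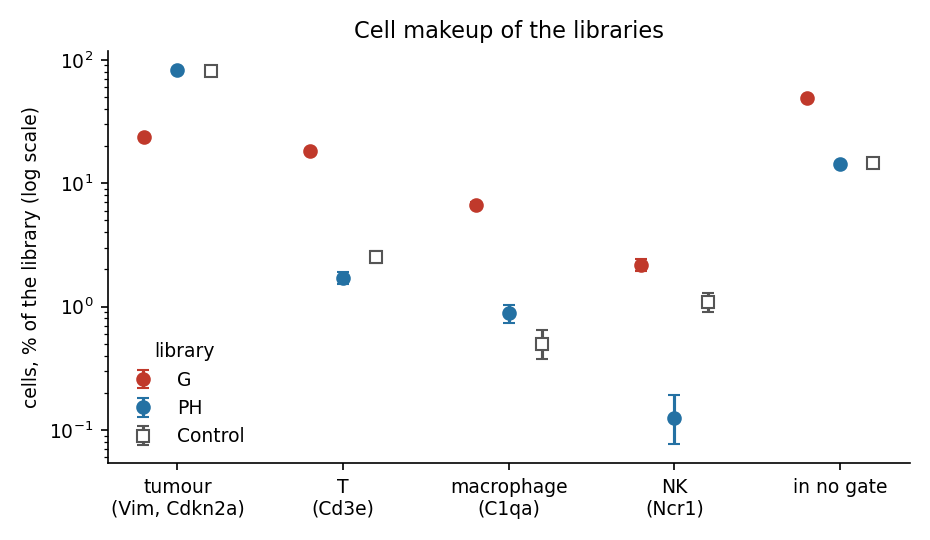
Share of the kept cells in each gate (log scale, % of the library) in G, PH and control, with exact 95% intervals. G has fewer tumour-gate cells (23.5% against 82.9% in PH) and more T cells, macrophages, NK cells and cells in no gate (49.4% against 14.4%). PH and control are close in the tumour gate (82.9 and 81.2%).

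In the tumour gate, G was set apart by secreted and membrane proteins of gut-like ductal cells. Tff1 and Tff2, mucus-stabilising trefoil peptides, stood at 1817 and 2013 CPM in G and at 0.0354 and 0.0826 CPM in PH. Agr2, an endoplasmic reticulum protein of mucus-secreting cells, was at 655 CPM in G and 0.0885 CPM in PH. Tff3, Reg1, Fxyd3, Tmprss4, Ttr, Mucl3 and Sptssb completed the 10 genes furthest toward G, at 62.9 to 695 CPM there and at most 0.519 CPM in PH. All were at most 2.70 CPM in control as well but high in GPH, where Tff1 reached 1757 CPM. Of the 18 epithelial genes listed, 12 were measured (a level of 20 CPM or more on either side, with 20 UMIs over both), and all 12 were at least 2-fold higher in G, with a median log2 ratio of 4.97. Over all 4848 measured genes, 9.57% were at least 2-fold higher in G and 5.45% at least 2-fold higher in PH, with a median log2 ratio of -0.10.

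The genes furthest toward PH in this gate were of other kinds. Ccl2, which attracts monocytes, stood at 198 CPM in G and 957 CPM in PH (4.83-fold, 4.75 to 4.91), with 318 CPM in control. Slc7a11, the cystine importer that feeds glutathione synthesis, was at 17.4 and 65.1 CPM (3.74-fold, control 12.3), and Nfkbiz, an inducible NF-kappaB cofactor, at 66.7 and 241 CPM (3.61-fold, control 122). For these 3 genes PH lay above control, and for Ccl2 and Nfkbiz G lay under it. The adhesion genes Cdh13 and Cdh2, the growth factor gene Ereg, the matrix genes Ltbp1 and Nid1, and Clca3a1 and Zcchc24 were 3.76-fold to 6.27-fold higher in PH. Of 15 measured mesenchymal genes 9 were higher in PH, among them Fn1 (266 and 879 CPM), Axl (29.5 and 95.4 CPM) and S100a4 (2031 and 6095 CPM), and 1, Acta2, was higher in G. Of 14 measured matrix genes 7 were higher in PH and none in G.

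Fewer genes differed among cells without Krt19, the keratin of ductal cells. Krt19 itself was at 1731 CPM in G and 165 CPM in PH. Tumour-gate cells with a Krt19 UMI numbered 2010 in G, with a median of 25210 UMIs, and 6402 in PH, with a median of 12755. At 1500 UMIs per cell, Krt19 was detected in 40.5% of the gate in G and 16.1% in PH, against 3.05 and 0.412% in the T gate. Among the 1289 cells of G and 6895 cells of PH without Krt19, 1.61% of 4535 measured genes were higher in G (73 genes) and 0.662% in PH (30 genes), with a median log2 ratio of 0.00. Tff1 was at 8.14 CPM in these cells of G and 0.0482 CPM in those of PH, and Tff2 at 11.1 and 0.145 CPM, still far higher in G. The Krt19 cells themselves also differed, with ductal markers at 5982 CPM in G and 276 CPM in PH. Krt19, the gene that selected these cells, made up 2152 CPM of the sum in G and 260 CPM in PH. The median of the matrix list was -1.14 in the whole gate and 0.20 without Krt19 cells, and that of the mesenchymal list -1.24 and -0.16. With every cell weighted alike, 307 genes were higher in G and 85 in PH, in place of 464 and 264, so that the share of calls toward G was 78.3% in place of 63.7%. Scaling by the median ratio gave 72.3% (520 and 199 genes). Y-linked RNA was 25.4 CPM in the Krt19 cells of G and 8.72 CPM in the cells without Krt19, against 0.391 and 0.434 CPM in PH.

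**Figure D2:**
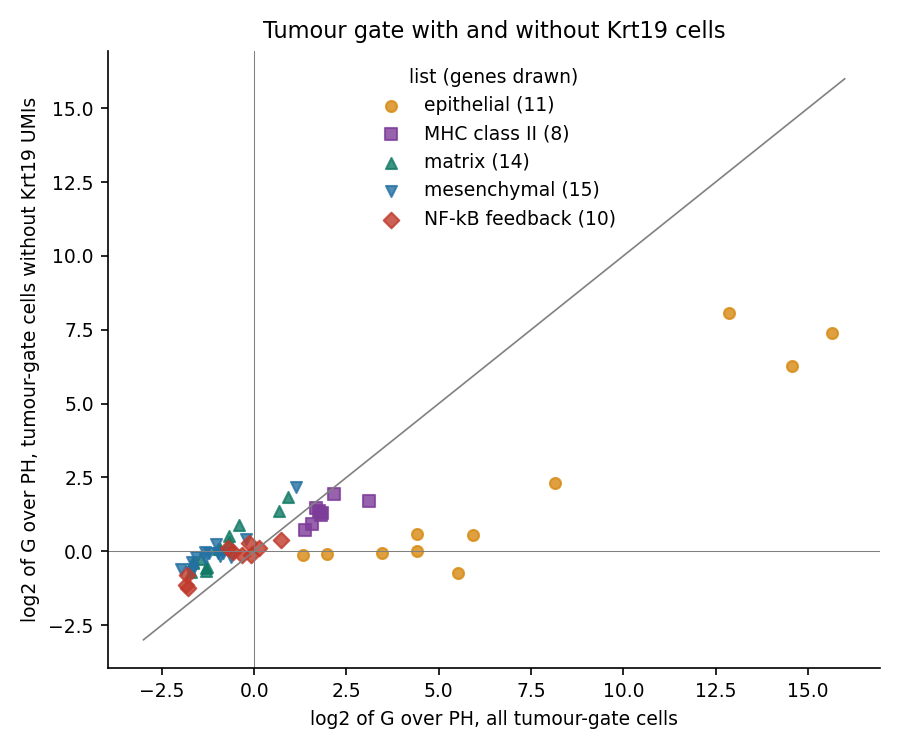
Each point is a listed gene measured in the tumour gate, with its log2 ratio of G over PH in all tumour-gate cells (x axis) and in those without Krt19 UMIs (y axis). Medians of the matrix and mesenchymal lists are nearer to 0 without Krt19 cells (0.20 and -0.16), while Acta2 and Col1a1 lie further toward G. The grey diagonal marks equal ratios, and genes without a UMI in either library are not drawn.

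The genes furthest apart in the Krt19-free cells were listed by the same rule after the data had been seen. Toward G stood Ptn, a growth factor gene (218 and 39.2 CPM, 5.55-fold, 5.26 to 5.86), Acta2, the smooth muscle actin of contractile cells (185 and 41.5 CPM, 4.47-fold), Has2, which makes hyaluronan (80.5 and 21.5 CPM, 3.74-fold), and Col1a1 (118 and 33.0 CPM, 3.59-fold). Il33, Igfbp7, Clu, Tubb2a and the heat-shock genes Hsph1 and Hspa1b were 2.73-fold to 3.47-fold higher in G. Fibroblast markers summed to 815 CPM in these cells of G and 604 CPM in those of PH, and pericyte or smooth muscle markers to 28.9 and 10.7 CPM, and their part in these genes was not tested. Toward PH stood Idh1, which makes NADPH in the cytosol (24.4 and 124 CPM, 5.08-fold, 4.55 to 5.68, control 42.8), Slc7a11 (27.3 and 72.7 CPM, 2.67-fold, control 9.89), Tnfaip3, a brake on NF-kappaB (2.39-fold, 2.15 to 2.66, with 66.9 CPM in PH and 12.3 CPM in control), and Nfkbiz (130 and 285 CPM, 2.20-fold, control 138). Ccl2 kept a 2.11-fold excess in PH (495 and 1044 CPM, control 301). Anxa8, Aldh3a1, Kdm7a, Clca3a1 and Fos were 2.07-fold to 2.91-fold higher in PH. For the 5 genes given with a control value here, PH lay above control, and G lay under it for Idh1 and Nfkbiz.

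Lists tied to the drugs' known targets were counted in the Krt19-free cells and in the whole tumour gate. Of 9 measured gemcitabine-handling genes none reached 2-fold without Krt19 cells (median 0.01), and Rrm1, the large subunit of ribonucleotide reductase, stood at 37.7 CPM in G and 32.3 CPM in PH. In the whole gate 1 of 9 was higher in PH, Slc29a1, a nucleoside importer (30.3 and 69.9 CPM). Of 16 autophagy genes none reached 2-fold (median -0.19), with Sqstm1, the autophagy cargo receptor p62, at 331 and 341 CPM, and Map1lc3b at 240 and 263 CPM. In the whole gate 2 of 17 were higher in PH, Calcoco1 and Wipi1. Of 15 lysosome genes 1 was higher in G, and of 14 proton pump genes none. Vdr, the vitamin D receptor, was at 2.13 and 1.88 CPM. Of 5 measured vitamin D response genes none reached 2-fold, while in the whole gate 2 of 6 were higher in G, S100g (204 and 1.91 CPM) and Cd14, and 1 in PH, Igfbp3 (65.7 and 161 CPM). The 20 measured mitosis genes had a median of 0.48 and the 13 replication genes 0.40 toward G, with none at 2-fold. In the whole gate the sign was the other way, with -0.24 for 18 mitosis genes and -0.24 for 10 replication genes, again with none at 2-fold. Among 21 genes of chaperones and the unfolded protein response 1 was higher in G, Hspa5, the chaperone BiP, at 968 and 463 CPM (control 626). In the whole tumour gate 4 of 20 were, led by Herpud1 (163 and 41.5 CPM) and Xbp1 (102 and 29.7 CPM).

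Lists of immune function went both ways in the tumour gate. All 8 measured MHC class II genes were higher in G in the whole gate, and 6 of 8 without Krt19 cells, where Cd74, the invariant chain, was at 734 and 223 CPM, H2-Aa at 310 and 127 CPM and H2-Eb1 at 443 and 171 CPM. Control held 561, 254 and 427 CPM of these, nearer to G than to PH. The macrophage markers summed to 185 CPM in these cells of G and 34.9 CPM in those of PH, and their part in the difference was not tested. In the whole gate Psmb8 and Psmb9, subunits of the immunoproteasome, stood at 60.5 and 55.3 CPM in G and at 2.66 and 1.76 CPM in PH, and Cxcl9, which attracts T cells, at 287 and 6.12 CPM. Of 12 measured interferon-stimulated genes 6 were higher in G, with Gbp2 at 279 and 108 CPM. Toward PH were all 3 measured genes of the monocyte chemokine list, Ccl2, Ccl7 (44.8 and 90.5 CPM) and Csf1 (25.2 and 51.3 CPM), and 3 of 10 NF-kappaB feedback genes, with none toward G.

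T cells of PH held more RNA of the cytotoxic program than those of G. At 1500 UMIs per cell, Cd8a or Cd8b1 was detected in 51.4% of the T gate of PH (125 of 243 cells, 45.0 to 57.9%) and 23.2% of that of G (578 of 2492, 21.6 to 24.9%), against at most 0.431% in the tumour gates. Before thinning, the shares were 59.1 and 35.7%. Gzmb, encoding granzyme B, was detected in 43.6% of PH and 16.1% of G (at most 0.246% of the tumour gates). Cd4 was detected in 6.17% of PH (3.50 to 9.98%) and 10.5% of G (9.30 to 11.7%), with intervals that overlap. Foxp3, the regulator of regulatory T cells, was detected in 0.412% of PH (1 cell) and 3.37% of G. Cycling cells, with Mki67 or Top2a, were 13.2% in PH and 15.8% in G, intervals that overlap, and tumour-gate cells had like shares (14.7 and 14.5%). In all, 3.01% of 5090 measured genes were at least 2-fold higher in G (153 genes) and 4.03% in PH (205 genes).

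Among the genes furthest toward PH by the rule, 9 of 10 came from few cells. Col3a1, Col1a1, Col1a2, Col6a1, Col6a2, Col4a1, Sparc, Saa3 and Mgp each had over 50% of their PH counts in a single barcode, for Col3a1 367 of 371 UMIs. The fibroblast markers summed to 566 CPM in the T gate of PH and 25.8 CPM in G. Without the 1 barcode of PH and the 8 of G in which markers of other cell types made up at least 1% of the UMIs, the sum was 83.4 CPM in PH and Col3a1 had a log2 ratio of 0.13 in place of -6.25. Of the 205 genes higher in PH, 51 had over 50% of their counts in 1 cell, and none of the 153 higher in G. These genes are therefore left aside below, a step chosen after the data had been seen.

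Gzma, encoding granzyme A, then led the genes toward PH, at 58.1 CPM in G and 983 CPM in PH (16.9-fold, 15.4 to 18.6), with 1196 CPM in control. Ccl5, a chemokine of effector T cells, was at 2767 and 18346 CPM (6.63-fold, control 15376), Gzmb at 222 and 753 CPM (3.40-fold, control 945) and Gzmk at 38.6 and 130 CPM (3.37-fold, control 107). Tnf (11.5 and 60.2 CPM), the early activation antigen Cd69 (45.0 and 188 CPM) and Ccl4 (142 and 401 CPM), Ly6c2, Dusp2 and Emp1 followed at 2.66-fold to 5.23-fold. In each of these 10 genes PH lay nearer to control than G did. Part of the contrast remained among CD8 cells, of which G held 867 and PH 161: Gzma was at 91.8 and 522 CPM there, Gzmb at 343 and 784 CPM, and Ccl5 at 4069 and 21374 CPM. Of 14 measured cytotoxic genes 5 were higher in PH and 1, Klrg1, in G. The NK markers, Gzma among them, summed to 236 CPM in the T gate of G and 1228 CPM in that of PH, where Gzma made up 983 CPM. The part of NK cells in these results was not tested, and Ncr1 is at 0 by the gate.

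Toward G stood Xcl1, which attracts cross-presenting dendritic cells, at 497 and 77.5 CPM (6.42-fold, 5.09 to 8.21, control 427). In CD8 cells it was at 608 and 60.3 CPM. Ifit1, an interferon-stimulated gene, was at 67.4 and 12.9 CPM (control 46.0), Tent5a at 233 and 74.2 CPM, Ube2c, a ubiquitin enzyme of mitosis, at 122 and 38.7 CPM, and Fabp5, a fatty acid carrier, at 223 and 88.2 CPM. Clu, Cxcl10, Cst3 and Selenoh were 2.32-fold to 4.14-fold higher. Clu stood at 623 CPM in the tumour gate of G, and 467 of its 1567 UMIs in the T gate came from 1 cell. Cxcl10, Cst3 and Fabp5 were at 405, 2286 and 842 CPM in the macrophage gate of G. The part of free or doublet RNA in these 4 genes was not tested. Idi1 of the mevalonate pathway was at 73.9 and 18.3 CPM (4.04-fold, control 47.1), and 7 of 11 measured genes of the cholesterol synthesis list were higher in G and none in PH (median 1.27). The median was 0.01 when Cd3e alone set the gate. Regulatory T-cell genes had 5 of 13 higher in G, with Foxp3 at 24.9 and 7.53 CPM, Il2ra at 63.2 and 30.1 CPM, and Ikzf2 at 421 and 207 CPM. Foxp3 was seen in only 4 cells of PH. Among CD4 cells, 563 in G and 27 in PH, each of these named genes was under 2-fold. There Foxp3 was at 39.6 and 33.9 CPM (3 UMIs in PH), Il2ra at 106 and 56.5 CPM, and Ikzf2 at 431 and 282 CPM.

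Of 12 inhibitory receptor genes measured, 2 were higher in PH, Lag3 (60.1 and 122 CPM) and Cd244a, and none in G, with a median of -0.49. Tigit was at 30.2 and 59.2 CPM. Pdcd1, encoding PD-1, stood at 165 CPM in G and 159 CPM in PH (ratio 1.04, 0.877 to 1.23), Tox at 127 and 123 CPM, Ctla4 at 269 and 293 CPM, and Tcf7, a factor of stem-like T cells, at 40.3 and 35.5 CPM. MHC class II genes, which mouse T cells hardly make, were higher in G for 6 of 8, with Cd74 at 1009 and 266 CPM. The median was 2.02, and 0.81 after removal of likely doublets, when 3 of 7 were higher. Cd74 stood at 12449 CPM in the macrophage gate of G, and the part of free or doublet RNA was not tested further.

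**Figure D3:**
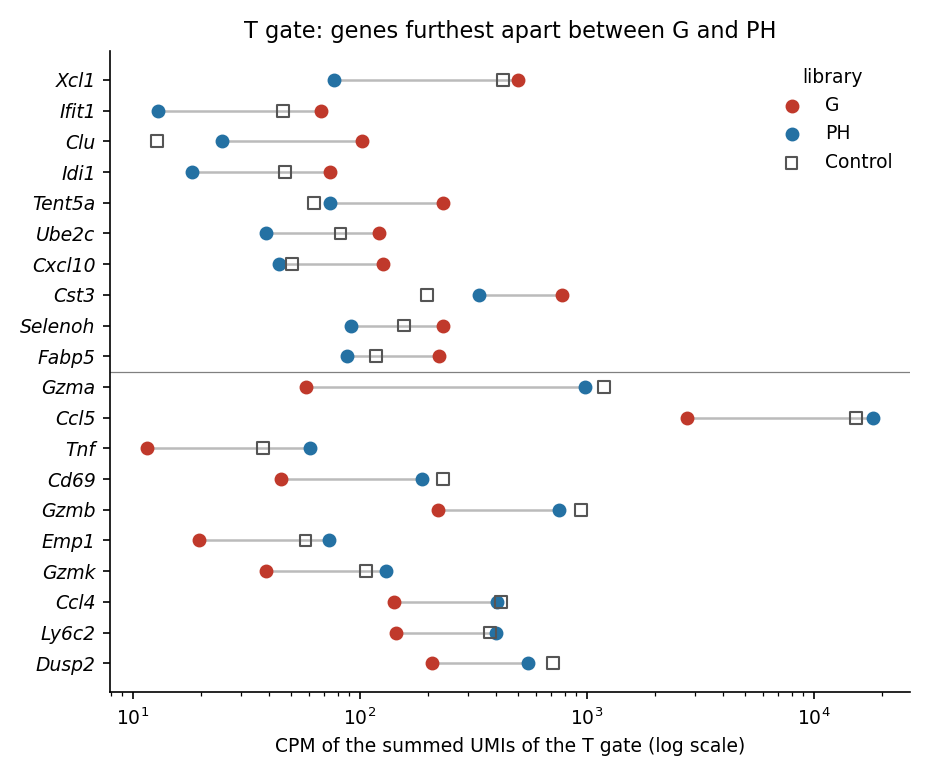
Level in the T gate (CPM, log scale) of the 10 genes furthest toward G (upper rows) and toward PH (lower rows) once genes with most counts in 1 cell are set aside, in G, PH and control. In the lower rows G stands apart at the left while PH and control lie together, as for Gzma at 58.1, 983 and 1196 CPM.

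Macrophages differed on both sides, with 8.19% of 4959 measured genes at least 2-fold higher in G (406 genes) and 7.44% in PH (369 genes). Control values in this gate rest on 55 cells, where 1 UMI weighs 1.57 CPM. The list of inflammatory macrophage genes had 17 measured members, 11 of them higher in PH (median -2.71) and 4 in G, namely Ccl5 (1301 and 339 CPM), Saa3 (1050 and 437 CPM), Nos2 and Cd86. Cxcl1 stood at 34.7 CPM in G and 1318 CPM in PH (38.0-fold, 33.1 to 43.7), and control held 23.5 CPM. It was detected in 48 of 932 cells of G and 77 of 141 cells of PH. Cxcl2 was at 1108 and 15379 CPM (13.9-fold, control 1474) and Cxcl3 at 9.27 and 374 CPM (40.4-fold, control 76.8). All 6 measured genes of the neutrophil chemokine list were higher in PH, with Il1a at 17.4 and 542 CPM, Il1b at 392.3 and 2574 CPM and Csf3, the neutrophil growth factor, at 1.77 and 22.2 CPM (median -4.38). With C1qa alone as the gate, the medians were -2.97 for this list and -1.94 for the inflammatory list. That wider gate took in cells that also held Cdkn2a, 447 of 751 in PH and 419 of 2071 in G. Tnf (18.5 and 365 CPM, control 29.8), Il6 (5.15 and 135 CPM, control 0) and Ptgs2, the inducible cyclooxygenase (94.2 and 761 CPM, control 64.2), were of the same pattern, in which PH stood above both G and control.

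Monocyte chemokines were also lower in G, but there PH resembled control. Ccl2 was at 150 CPM in G and 2868 CPM in PH (19.1-fold, 17.8 to 20.5), with 1778 CPM in control. Ccl7 stood at 78.1 and 1988 CPM (control 1648), and Ccl12 at 24.1 and 851 CPM (control 1371). Of the 8 measured genes of this list 5 were higher in PH (median -3.38, and -1.57 with C1qa alone). Ccl8 went the other way, at 1578 and 257 CPM, with 854 of its 10725 UMIs in G in 1 cell and 2335 CPM in control. Feedback genes of NF-kappaB were split, with Nfkbia (282 and 1783 CPM, control 376), Nfkbiz and Tnfaip3 higher in PH, and Rel and Bcl3 higher in G.

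Scavenger and repair genes were mostly higher in PH, in 13 of 18 (median -2.18, and -0.67 with C1qa alone as the gate). Il10, the anti-inflammatory cytokine, ranked first toward PH at 6.92 CPM in G and 368 CPM in PH (53.2-fold, 39.4 to 73.5), with 6.27 CPM in control. Arg1, the arginine-degrading enzyme, was at 218 and 1730 CPM (control 1551) and detected, at 1500 UMIs per cell, in 10.5% of G and 55.1% of PH, against 0.185 and 0.337% in the tumour gates. The scavenger receptors Msr1 (79.6 and 477 CPM) and Mrc1 (175 and 388 CPM) followed, and Cd163 was seen in 5 and 9 cells only. Mgl2, a lectin of alternatively activated macrophages and dendritic cells, went toward G at 342 and 13.5 CPM (25.4-fold), as did Retnla, with 335 of its 1363 UMIs in 1 cell. Hmox1, the haem-degrading enzyme, was at 137 and 573 CPM (control 509).

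**Figure D4:**
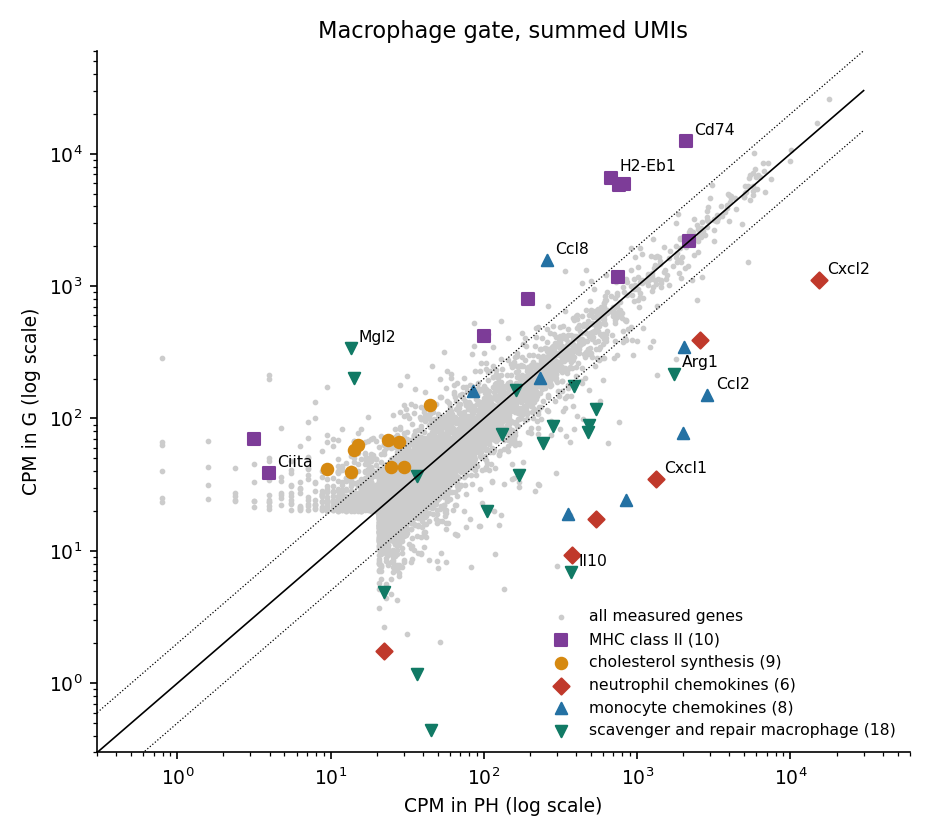
Each point is a gene measured in the macrophage gate, with its level in PH (x axis) and in G (y axis), both as CPM on log scales; the solid line marks equal levels, the dotted lines 2-fold, and 5 lists are coloured with the number of genes drawn. All 6 neutrophil chemokine genes and 5 of 8 genes of the monocyte chemokine list lie below the dotted lines, with Ccl8 above, as are 8 of 10 MHC class II and 7 of 9 cholesterol genes. Genes at 0 in either library are not drawn.

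Antigen presentation went toward G. H2-Eb1 stood at 6604 CPM in G and 672 CPM in PH (9.83-fold, 9.18 to 10.5), with 708 CPM in control, H2-Aa at 5960 and 819 CPM and H2-Ab1 at 5847 and 756 CPM. Ciita, the master switch of these genes, was at 38.7 and 3.97 CPM. In all, 8 of 10 measured MHC class II genes were higher in G (median 2.72), while Ctss, the protease that trims the invariant chain, was at 2184 and 2194 CPM. Cd74 was detected in 96.4% of the macrophages of G and 66.7% of those of PH at 1500 UMIs, against 59.3 and 16.2% of tumour-gate cells, so its background also differed. With at least 3 UMIs of C1qa required, which left 720 and 127 cells, H2-Eb1 was at 6882 and 682 CPM.

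Other genes toward G included chemokines of T cells and genes of dendritic cells and interferon. Ccl17 and Ccl22, ligands of CCR4, were at 214 and 41.9 CPM in G and at 3.97 and 2.38 CPM in PH, where each came from 1 cell. Cxcl9 was at 1940 and 905 CPM, and 5 of 7 measured T-cell chemokine genes were higher in G. They include Xcl1, a gene of T and NK cells, at 64.3 CPM in G and without a UMI in PH. T-cell markers summed to 176 CPM in the macrophage gate of G and 34.1 CPM in that of PH, and NK markers to 102 and 33.3 CPM. Ear2 (289 and 0.793 CPM), Ccr7 (63.0 and 0.793 CPM), H2-M2, Dcstamp, Lyz1 and S100a9 completed the rule's genes. The 8 dendritic markers summed to 102 CPM in the gate of G and 6.34 CPM in that of PH, where 4 were at 0, and the 8 neutrophil markers to 526 and 169 CPM. The part of these 4 cell types in the results was not tested. Ifit1 was at 172 and 9.52 CPM, Rsad2 at 320 and 54.7 CPM, and 8 of 19 measured interferon-stimulated genes were higher in G with none higher in PH.

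The macrophages also differed in sterol and drug-related genes. Of 9 measured genes of the cholesterol synthesis list, 7 were higher in G (median 1.54), among them Idi1 (41.6 and 9.52 CPM), Cyp51 (63.0 and 15.1 CPM) and Hmgcs1 (58.1 and 14.3 CPM). The same list thus leaned toward G in T cells and macrophages, while in the tumour gate none of 12 reached 2-fold (median -0.01). Vdr was higher in G, at 83.4 CPM against 11.9 CPM in PH (7.01-fold, 4.22 to 12.6), and control held 14.1 CPM. Spp1, encoding osteopontin, was at 382 and 1273 CPM with 3530 CPM in control. Of 22 lysosome genes 4 were higher in PH, the proteases Ctsl (303 and 936 CPM), Ctsb (1109 and 2269 CPM) and Lgmn (383 and 990 CPM) and Grn (392.3 and 921 CPM), and in each control was nearer to PH. Lamp1, the lysosomal membrane protein, was at 618 and 741 CPM, and none of 14 autophagy genes was higher in PH while 1, Map1lc3a, was higher in G. Replication genes were higher in PH for 7 of 12 (median -1.29), such as Mcm6 at 20.3 and 62.7 CPM. With C1qa alone as the gate, the median was -0.15 for replication and 0.55 for the cholesterol list.

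NK cells can be described only loosely, since PH held 20 of them and 1 UMI there weighs 9.98 CPM. At that depth 20.8% of 4788 measured genes were at least 2-fold higher in G (998 genes) and 9.31% in PH (446 genes), and of the latter 182 had over 50% of their counts in 1 cell. Ccl12, Arg1, Cxcl1, Lgmn and Ccl7, genes of macrophages, came from a single cell of PH. Cma1, Cpa3, Mcpt4 and Tpsb2, proteases of mast cells, were at 327 to 591 CPM in G, in 5 to 10 of 306 cells, and had no UMI in PH, where 3 UMIs would be 29.95 CPM. Gzma was at 2173 CPM in G and 4592 CPM in PH (control 4578), the same order as in the T gate, and Gzmc, another granzyme, at 1088 and 230 CPM (control 5021).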

How the data were processed

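Droplet single-cell RNA libraries (10x Genomics) were used as deposited: unnormalized UMI counts, stored by the authors as sparse matrices of genes by barcodes. Counting used Cell Ranger 7.0.1 per the file headers, while the submitters' processing notes name Cell Ranger 6.1 and mm10. Deposited barcodes numbered 16748 in G and 18589 in PH. Features sharing a symbol were summed (78 of 32285). UMIs were summed per library and gate and scaled to CPM, so large cells weigh more. Intervals are 95%: conditional binomial (exact) for a ratio, Clopper-Pearson (exact) for a share. A gene was measured at 20 CPM or more in at least 1 of G and PH and 20 UMIs over both, and called by size alone at 2-fold. A count of 0 was given a limit of 3 UMIs. For shares of cells with a UMI, cells were thinned to 1500 UMIs. The calculations were tested on simulated counts.

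Named genes had at least 50 CPM in 1 library and were ranked by the interval bound nearest to 0: 10 toward each library (6 for NK cells). Mitochondrial, ribosomal, haemoglobin, immunoglobulin, T-cell receptor, sex-linked, predicted and gate genes were left out, as were genes under 1/10 of their CPM in another gate or outside the gates. Members of 45 gene lists are also named. The comparison, the lists and the 14 marker lists were chosen with earlier results of these data known. Doublets were kept in the main values. As an alternative, the highest Scrublet scores (scanpy 1.11.5) were removed at a fixed rate proportional to the kept barcodes (2056 removed in PH, 1573 in G), since its automatic threshold called 1 barcode in PH and 0 in G. Other alternatives changed the gates, scaling, weighting and filters. Work was done in Python 3.11.15 with pandas 2.3.3, numpy 2.4.6, matplotlib 3.10.9 and scipy 1.17.1. Alternatives without cells carrying at least 1% of other types' marker UMIs, and the named-gene rule applied to Krt19-free cells and to genes not concentrated in 1 cell, were chosen after seeing the data.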

Additional observations from a re-analysis of the deposited data

Results flagged for a closer look

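Gzma and Saa3 were at least 2-fold apart in opposite directions in T cells and macrophages. The log2 ratio of G over PH was -4.08 for Gzma in the T gate and 2.15 in the macrophage gate, and -4.46 and 1.26 for Saa3. These differences between gates were not tested. Of the 146 UMIs of Saa3 in the T gate of PH, 79 came from 1 cell. In the macrophage gate, 578 of its 7135 UMIs in G came from 1 cell.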

How the results depend on the processing

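No paired analysis was possible because each group is 1 library. Across alternatives, 14 of 25 values of the gate-share ratios (G over PH), 63 of 90 gene counts, 142 of 162 list medians and 458 of 601 log2 ratios of named genes stayed close to the main value (within the counting interval, or 1.5 times), and 0 share ratios, 0 counts, 2 medians and 5 named genes reversed. Causes were not tested. The tumour share ratio of 0.284 was 0.234 thinned, 0.274 at most 10% mitochondrial and 0.297 without doublets. The T ratio of 10.7 was 2.48 with the gate gene alone, 8.34 thinned and 8.41 typed by markers; the macrophage ratio of 7.56 was 3.15, 9.12 and 3.74. The NK ratio of 17.5 was 34.9 at 2 UMIs of the gate genes, which left 2 cells in PH, and 3.50 typed. Genes higher in G and in PH in the tumour gate numbered 464 and 264, and 73 and 30 without Krt19 cells, 307 and 85 with equal weight per cell, 217 and 120 at 50 CPM, and 2229 and 1917 with no minimum. In the T gate they were 153 and 205, and 844 and 615 with Cd3e alone, 810 and 986 in CD4 cells, 55 and 80 at 50 CPM, and 1271 and 775 with no minimum; 279 were higher in G with mitochondrial and ribosomal genes out of the total, and 351 higher in PH in CD8 cells. In macrophages they were 406 and 369, and 199 and 189 at 50 CPM, 1287 and 835 with no minimum, and 668 higher in G with C1qa alone. In NK cells they were 998 and 446, and 247 and 195 at 50 CPM; 655 were higher in G with Ncr1 alone and 257 higher in PH at 2 UMIs. Median log2 ratios in the tumour gate moved without Krt19 cells to 0.20 (matrix, from -1.14) and -0.16 (mesenchymal, from -1.24), with equal weight to -0.37, -0.58 and 4.06 (epithelial, from 4.97), and with no minimum to 3.94 (epithelial). In T cells, cholesterol synthesis (1.27) was 0.0088 with Cd3e alone and 0.60 with no minimum, and MHC class II (2.02) was 0.81 without doublets and 3.20 in CD4 cells. In macrophages with C1qa alone, replication (-1.29) was -0.15, mitosis (-1.03) 0.090, cholesterol synthesis (1.54) 0.55, neutrophil chemokines (-4.38) -2.97, monocyte chemokines (-3.38) -1.57, inflammatory genes (-2.71) -1.94 and scavenger genes (-2.18) -0.67; with equal weight, mitosis was -0.39 and neutrophil chemokines -5.22, and with no minimum, monocyte chemokines -2.56. Reversed single genes were Fabp5 in CD4 cells (-0.027), Col3a1 in T cells without cells rich in other markers (0.13), Saa3 with Cd3e alone (1.49), and in NK cells without cycling cells Hist1h2ap (-1.54) and Ccl2 (0.10). Among the gates, depth limits the NK gate of PH most, with 20 cells. The CD4 subset of the T gate held 563 cells in G but 27 in PH, where 1 UMI weighs 11.3 CPM.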
